A study of Paralichthys olivaceus with 6 samples.

Results

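The enzymes that turn cholesterol into steroid hormones were followed through the gonads of 6 double haploid (DH) Japanese flounder females, 3 sterile and 3 fertile. They are represented by 15 of the 52474 unigenes, the assembled transcript sequences to which the reads were assigned. The members are the unigenes that the study named *CYP11A1*, *CYP11B2*, *CYP17A1*, *CYP17A2*, *CYP21A1*, *HSD3B6* or *AKR1D1* in its list of differentially expressed unigenes, plus 1 unigene (c7251_g2_i1_649_1029) that carries the uncharacterized zebrafish symbol *LOC793249* there and matched mouse *Cyp21a1* in the pathway annotation. Together they stand for 7 genes, with 5 unigenes of *CYP11A1*, 3 of *CYP21A1*, 2 each of *CYP17A1* and *CYP17A2* and 1 each of the others. The list was drawn by fold change and significance between fertile and sterile gonads. Its heading names an unadjusted *p*, whereas the methods state a false discovery rate. The sterile-to-fertile difference of every member was therefore a condition of being chosen. It is described below without *p*-values, and counts of members past a test are given as a description from which nothing is read. The names are best matches to zebrafish, mouse or human transcripts. None of the unigene identifiers is in the reference gene table of the flounder, which lists a *cyp11a1.2*, a *cyp17a1*, a *cyp17a2*, a *cyp21a2*, a *cyp11c1*, an *hsd3b1* and an *hsd3b7*, and no gene called *cyp11b2*, *hsd3b6* or *akr1d1*; which unigene belongs to which of these genes was not determined.

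In the ovary, steroid hormones are made by the follicle cells that surround each oocyte, under the control of gonadotropins from the pituitary. CYP11A1, the side-chain cleavage enzyme of mitochondria, opens the pathway by turning cholesterol into pregnenolone, and 3β-hydroxysteroid dehydrogenase, here *HSD3B6*, turns pregnenolone into progesterone. CYP17A1 then leads towards androgens and, through aromatase, estradiol, which drives the liver to make yolk protein. In tilapia and other teleosts the related CYP17A2 hydroxylates progesterone without cleaving it further, a step towards the progestin that triggers oocyte maturation. CYP21A1 and CYP11B2 are best known from corticosteroid synthesis in adrenal or interrenal tissue, and AKR1D1 is a reductase that inactivates steroids and takes part in bile acid synthesis.

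The fish were 5 years old, came from a single wild mother and are each homozygous, because a single set of her chromosomes was duplicated. The sterile females gave no eggs and their gonads were labelled stage Ⅲ, whereas the fertile females had viable offspring and their gonads were labelled stage Ⅴ, so sterility and ovarian stage cannot be told apart. Each library was taken as the whole gonad of 1 fish, and in such bulk tissue fewer steroid-making cells and less RNA per cell cannot be told apart. The count table names the sterile libraries S1, S4 and S5. The column names of S4 and S5 end in *shang*, whereas those of S1 and of every fertile library end in *qian*. What these endings mark is not stated in the sources used here, and its part in the levels was not tested. S4 and S5 were taken as sterile from the letter alone, since the sample titles hold no such numbers. They had the most counts of all libraries, with S4 first, as the sterile S2 and S3 had the most clean reads in the paper, with S2 first. Whether they are the same libraries was not tested. Total counts were between 25024469 and 35719683 per sterile library and between 25816309 and 29040459 per fertile library, so 1 count of a unigene corresponded to a CPM of 0.0292 to 0.0395. CPM is a count scaled to library size, here after TMM normalization, which corrects library size for composition. Intervals are exact 95% Poisson or binomial intervals and cover counting error only.

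The gonad carried transcripts of its own cell types in every library. *fshr*, the receptor of follicle-stimulating hormone on granulosa cells, and *nr5a1b*, a nuclear receptor of steroid-making cells, summed to 6.42 to 12.5 CPM in the sterile fish and 13.8 to 27.9 CPM in the fertile fish, and the meiosis genes *sycp3* and *spo11* to 0.237 to 0.292 CPM and 0.733 to 1.08 CPM. Of 4 exocrine pancreas markers, 3 had a unigene on the study's list, and the 4 unigenes summed to 2.93 to 12.8 CPM in sterile against 0.644 to 1.71 CPM in fertile fish. The 17 unigenes of 10 leukocyte markers summed to 95.8 to 191 CPM in sterile against 56.9 to 74.2 CPM in fertile fish, 12 of them higher in every sterile fish. The 3 unigenes of the peroxidase *mpx* among them went the other way. The leukocyte sum was mostly *cd74a*, so it says little about the other markers. Its unigene Contig25050 alone had 1627, 1378 and 2464 counts in S1, S4 and S5, against 601, 604 and 942 counts in F1, F2 and F3. Outside *cd74a*, no leukocyte unigene had more than the 399 counts of *itgb2* in S5. The pancreas unigene *prss1* had 0 counts in F1 and F3, and a pair of the 4 *cd74a* unigenes had 0 counts in S1 and in every fertile fish. Marker symbols, like those of the enzymes, come from the study's list, which holds only unigenes that differed between the groups. These markers moved with the same groups as the enzymes, and their part in the enzyme levels was not tested.

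*CYP11A1*, the entry enzyme, had hardly any counts in sterile gonads. Its 5 unigenes together had 6, 7 and 7 counts in S1, S4 and S5, against 125, 239 and 92 counts in F1, F2 and F3. In CPM this was 0.237, 0.204 and 0.227 in the sterile fish, against 4.63, 8.10 and 3.06 in the fertile fish. The groups lay far apart, as the lowest fertile fish had 12.9 times the level of the highest sterile fish. The mean was 0.223 ± 0.0168 CPM in sterile and 5.27 ± 2.58 CPM in fertile gonads (SD, n = 3 each), and the log2 fold change of the summed unigenes, sterile over fertile, was -4.54 (standard error 0.43). The sterile fish were alike within counting error, since the interval of S1 alone ran from 0.0870 to 0.516 CPM.

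*HSD3B6* (Contig5047), the next step, was the only gene of the 7 with more than 14 counts in any sterile library. It had 92, 106 and 77 counts in S1, S4 and S5, against 251, 408 and 298 counts in F1, F2 and F3. Its level was 3.64, 3.09 and 2.50 CPM in the sterile fish, against 9.31, 13.8 and 9.92 CPM in the fertile fish. Here the sterile gonads kept 27.9% of the mean fertile level, whereas for *CYP11A1* they kept 4.23%. The means were 3.08 ± 0.569 CPM in sterile and 11.0 ± 2.45 CPM in fertile gonads (SD, n = 3 each), with a log2 fold change of -1.84 (standard error 0.20).

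The related hydroxylases *CYP17A1* and *CYP17A2*, which act on the products of these steps, had few counts in all 6 fish and the smallest distance between the groups. The 2 unigenes of *CYP17A1* summed to 0.356, 0.204 and 0.260 CPM in S1, S4 and S5, against 0.704, 0.881 and 0.699 CPM in F1, F2 and F3. Those of *CYP17A2* summed to 0.553, 0.379 and 0.227 CPM in the sterile fish, against 0.964, 1.59 and 1.47 CPM in the fertile fish. No sterile fish reached a fertile fish in either gene, but the gap was narrow, with the lowest fertile fish at 1.97 times the highest sterile fish for *CYP17A1* and 1.74 times for *CYP17A2*. The sterile mean was 35.9% of the fertile mean for *CYP17A1* (log2 fold change -1.49, standard error 0.31) and 28.8% for *CYP17A2* (-1.81, standard error 0.35).

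*CYP21A1*, the steroid hydroxylase that leads to cortisol, resembled them. Its 3 unigenes summed to 6, 5 and 12 counts in S1, S4 and S5, against 34, 40 and 28 counts in F1, F2 and F3. This was 0.237, 0.146 and 0.389 CPM in the sterile fish, against 1.26, 1.36 and 0.932 CPM in the fertile fish, and 21.8% of the fertile mean. Among the sterile fish S5 was highest, but its interval of 0.201 to 0.680 CPM overlapped that of S4, 0.0474 to 0.341 CPM. The log2 fold change of the sum was -2.19 (standard error 0.36).

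*CYP11B2* (c8996_g3_i2_1013_1573), the mouse name of an aldosterone synthase, kept as small a share of its fertile level in sterile gonads as *CYP11A1*. It had 1, 4 and 2 counts in S1, S4 and S5, against 48, 97 and 16 counts in F1, F2 and F3. The level was 0.0395, 0.117 and 0.0649 CPM in the sterile fish, against 1.78, 3.29 and 0.533 CPM in the fertile fish. The sterile mean of 0.0737 ± 0.0394 CPM was 3.95% of the fertile mean of 1.87 ± 1.38 CPM (SD, n = 3 each), with a log2 fold change of -4.52 (standard error 0.79). Without F2 the log2 fold change was -3.82. Fertile fish differed widely among themselves, and F3 stood nearer to the sterile fish than F1 and F2 did.

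*AKR1D1* (Contig3871), the steroid reductase, had 2, 6 and 5 counts in S1, S4 and S5, against 21, 117 and 40 counts in F1, F2 and F3. Its level was 0.0791, 0.175 and 0.162 CPM in the sterile fish, against 0.779, 3.96 and 1.33 CPM in the fertile fish. The sterile mean was 6.86% of the fertile mean, with a log2 fold change of -3.79 (standard error 0.71). The fertile mean rested largely on F2, and without F2 the log2 fold change was -2.86.

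**Figure D1:**
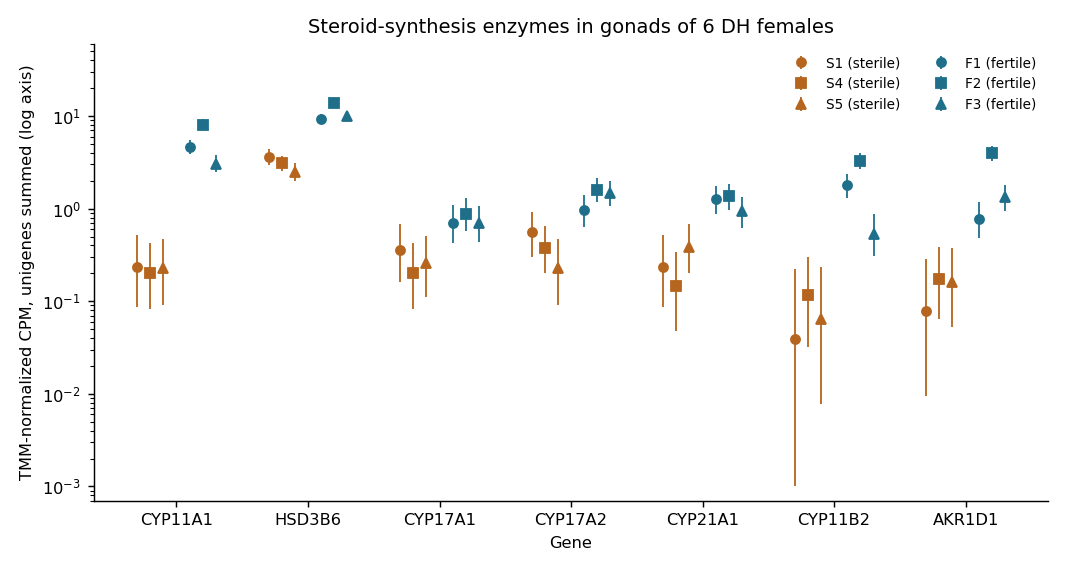
TMM-normalized CPM (log axis) of the 7 enzymes, with the unigenes of a gene summed, in the sterile (brown) and fertile (blue) fish; each point is 1 fish and the bars are exact 95% Poisson intervals for counting error. In all 7 genes the sterile fish lie below the fertile fish, by the widest margin in *CYP11A1*, and *HSD3B6* alone is above 1 CPM in sterile gonads.

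All 15 unigenes had a lower CPM in every sterile fish than in every fertile fish. Over all 35787 unigenes tested 10.7% did, and over all 51881 unigenes with a count 9.98% did, but the members were selected on this contrast and the count carries no further information. In raw counts the groups were separate for 14 members, the exception being c10563_g2_i1_448_5999 of *CYP21A1*, with 0, 2 and 1 counts in S1, S4 and S5, against 6, 9 and 2 counts in F1, F2 and F3. Most members were thinly covered, since 14 of the 15 had under 10 counts in each sterile library and 6 had 0 counts in at least 1 of them. The default filter on low counts kept 10 members and removed 5, namely c15635_g1_i1_770_7449 and c8996_g1_i1_612_1570 of *CYP11A1*, c9173_g1_i1_385_1623 of *CYP17A1*, and c10364_g1_i1_466_10854 and c10563_g2_i1_448_5999 of *CYP21A1*. Of the 10 tested, edgeR's quasi-likelihood test called 3 (adjusted *p* under 0.05, more than 2-fold), namely the *HSD3B6* unigene and c15635_g1_i2_1925_7450 and c6200_g1_i1_1114_9587 of *CYP11A1*. Over all tested unigenes, 0.0810% were called lower in sterile gonads by this rule and 0.137% in either direction. DESeq2 called 4 of the 10 members, and it called 0.360% of all tested unigenes lower in sterile gonads. For edgeR's exact test these were 9 members and 0.595%. At an unadjusted *p* under 0.05 in the quasi-likelihood test, again with more than 2-fold, they were 10 members and 1.09%. Without S4 the quasi-likelihood test called 0 members, and without S1 it called 1, and the shares over all unigenes are not given for these fits. The log2 fold changes of the 10 ranged from -4.69 to -1.26.

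Within *CYP11A1* the longest unigene carried most of the reads. The unigene c15635_g1_i2_1925_7450, of 1925 bases by its identifier, held 56.0%, 57.7% and 54.3% of the *CYP11A1* counts in F1, F2 and F3, so the mix was the same in the fertile fish within the intervals (43.6% to 64.8% for F3). In the sterile fish together it held 10 of 20 counts, 50.0% with an interval of 27.2% to 72.8%. The other 4 unigenes of *CYP11A1* had between 3 and 39 counts in a fertile library and between 0 and 3 in a sterile library. The shortest of them, c8996_g1_i1_612_1570, had 0 counts in S1, S4 and S5, against 6, 7 and 3 counts in F1, F2 and F3. With 3 counts over the sterile group as the floor, its observed fertile mean was 5.62 times the floor. Counting error in the few fertile counts is not included, so this is no strict lower bound. This unigene and the *CYP11B2* unigene came from the same assembly component, the set of reads that the assembler grouped together, although they were named after different genes. Reads that match several of these unigenes may have been divided between them, counted more than once or left out. The split over unigenes is therefore uncertain, and the sum over a gene may be affected too.

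Of the *CYP17A2* counts, c13080_g1_i2_1280_11607 held 38.2% (22.2% to 56.4%) in the sterile fish together and 49.6% (40.2% to 59.0%) in the fertile fish together, so the 2 variants were near parity in fertile gonads. Its partner c13080_g1_i3_1400_11608 had 8, 9 and 4 counts in S1, S4 and S5, against 14, 24 and 21 counts in F1, F2 and F3. Of *CYP17A1*, c14604_g1_i2_911_7187 held 83.3% (62.6% to 95.3%) and 71.2% (58.7% to 81.7%) of the counts in sterile and fertile fish. It came closest to overlap among the tested members, with 0.356 CPM in S1 against 0.408 CPM in F1. The *CYP21A1* counts were split over c7251_g2_i1_649_1029 with 56.5% and 52.9%, c10364_g1_i1_466_10854 with 30.4% and 30.4%, and c10563_g2_i1_448_5999 with 13.0% and 16.7% in sterile and fertile fish. The intervals of the sterile shares covered the fertile shares for every unigene of these 3 genes.

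**Figure D2:**
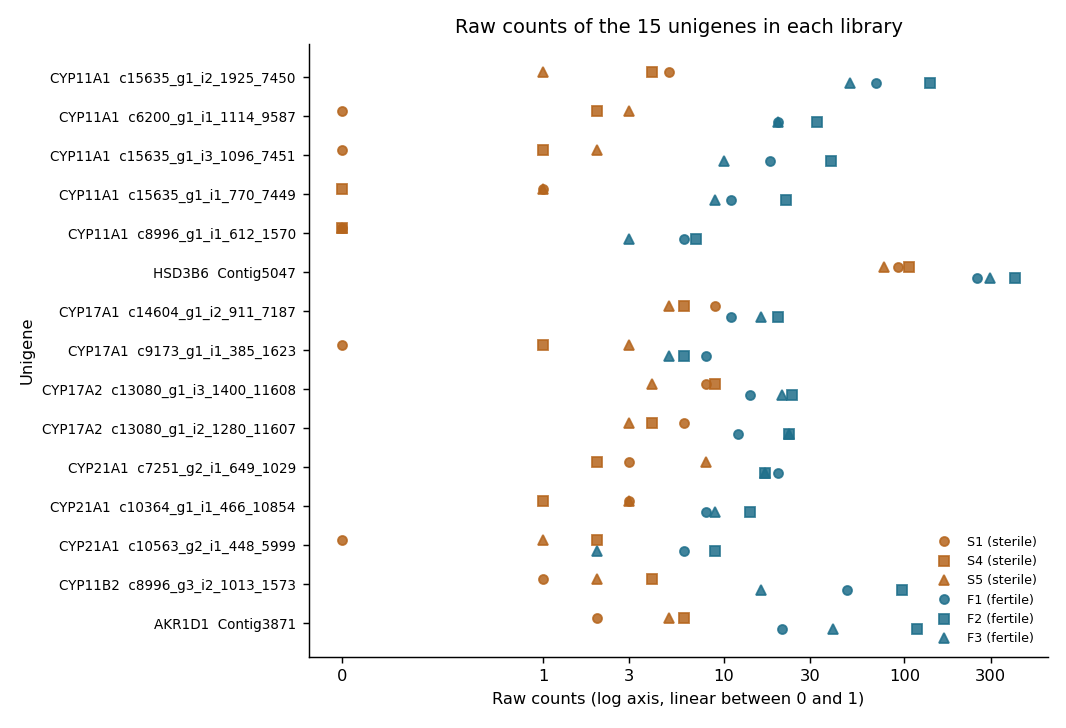
Raw counts (log axis, linear between 0 and 1) of each of the 15 unigenes, with sterile libraries in brown above fertile libraries in blue. *HSD3B6* is the only unigene with more than 9 counts in any sterile library, and c8996_g1_i1_612_1570 of *CYP11A1* has 0 counts in all 3.

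Unigenes of the same assembly components lie inside and outside the list that chose the members. In all, 9 further unigenes shared a component with a member, 8 of them outside the list, and none of the 9 passed the low-count filter. Among the members with counts in both groups, the smallest difference of mean CPM was that of c14604_g1_i2_911_7187 of *CYP17A1*, 2.33-fold lower in sterile fish, with 9, 6 and 5 counts in S1, S4 and S5, against 11, 20 and 16 counts in F1, F2 and F3. Outside the list, c14604_g2_i1_507_7190 of the same component was 2.59-fold lower and had 4, 8 and 4 counts in the sterile fish, against 10, 20 and 9 counts in the fertile fish, and c7251_g1_i1_375_1028 was 1.86-fold lower, with 3, 5 and 4 counts, against 8, 9 and 4 counts. The unigene c10563_g1_i1_297_5998 had 0, 1 and 0 counts in S1, S4 and S5, against 6, 5 and 1 counts in F1, F2 and F3. The 8 outside the list carry no gene name in the sources used here. All 9 had a lower mean CPM in sterile gonads, but the share of all unigenes that did is not given. Over all 6 libraries, c8996_g2_i1_209_1571 had 1 count and c8996_g3_i1_320_1572 had 3. The groups overlapped in 6 of the 9. Over all 51881 unigenes with a count, 9.98% had every sterile fish below every fertile fish. One without overlap, c10364_g2_i1_227_10855, is on the list and was thus selected on this contrast. Nothing is read from these counts.

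The fertile fish differed among themselves. Their order was no criterion of the list, although their counts entered the contrast behind it. F2 had the highest CPM of the 3 in 13 of the 15 members, where it was highest in 37.4% of all tested unigenes and in 37.0% of all unigenes with a count, and in each of the 7 genes summed. Among the 342 tested unigenes that, like the members, were lower in every sterile fish and more than 2-fold lower in the mean, a set chosen after seeing the data, F2 was highest in 72.8%. A lead of F2 was therefore common among unigenes lower in sterile gonads. The exceptions were c9173_g1_i1_385_1623 of *CYP17A1* and c7251_g2_i1_649_1029 of *CYP21A1*, both highest in F1. For c13080_g1_i2_1280_11607 of *CYP17A2* the lead was nominal, with 23 counts in both F2 and F3, and on total counts alone 12 members were highest in F2. Unigenes of a gene share reads and genes of a pathway share cells, so the 15 are not independent observations. The lowest fertile fish was F3 for 9 members and F1 for 6.

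How far the fertile fish spread differed between the enzymes. *CYP11B2* had 6.17 times the level in F2 as in F3 (interval 3.61 to 11.2), and 3.34 times in F1 as in F3 (1.86 to 6.30). For *AKR1D1* it was F1 that was low, with F2 at 5.09 times F1 (3.18 to 8.53) and 2.98 times F3 (2.06 to 4.37). *CYP11A1* had 2.64 times the level in F2 as in F3 (2.07 to 3.40) and 1.75 times as in F1 (1.40 to 2.19). The intervals exclude 1, so these fish differed by more than counting error, in a comparison of libraries and not of conditions. For *HSD3B6* the spread was smaller, at 1.49 times between F2 and F1 (1.27 to 1.75) and 0.938 times between F1 and F3 (0.790 to 1.11).

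In 2 enzymes no difference between fertile fish was detectable at this depth. *CYP21A1* had 1.45 times the level in F2 as in F3 (0.875 to 2.45) and *CYP17A1* 1.26 times (0.682 to 2.35), and the intervals of all 3 pairs of fish include 1 for both. *CYP17A2* had 1.65 times the level in F2 as in F1, with an interval whose lower bound lay just above 1 and whose upper bound was 2.78. For scale, among the 32411 unigenes with at least 10 counts in every fertile fish, the highest fertile fish had a median of 1.20 times the level of the lowest, 1.73 times at the 90th percentile and 3.28 times at the 99th. The unigenes of *CYP11B2* at 6.17, of *AKR1D1* at 5.09 and c15635_g1_i3_1096_7451 of *CYP11A1* at 3.97 lay beyond that 99th percentile. The intervals of *AKR1D1* (3.18 to 8.53) and of the *CYP11A1* unigene (1.95 to 8.91) reached below it, however. Moreover, the 32411 unigenes were not selected for a difference between the groups as the members were. *HSD3B6* had a larger ratio than 81.0% of these unigenes.

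**Figure D3:**
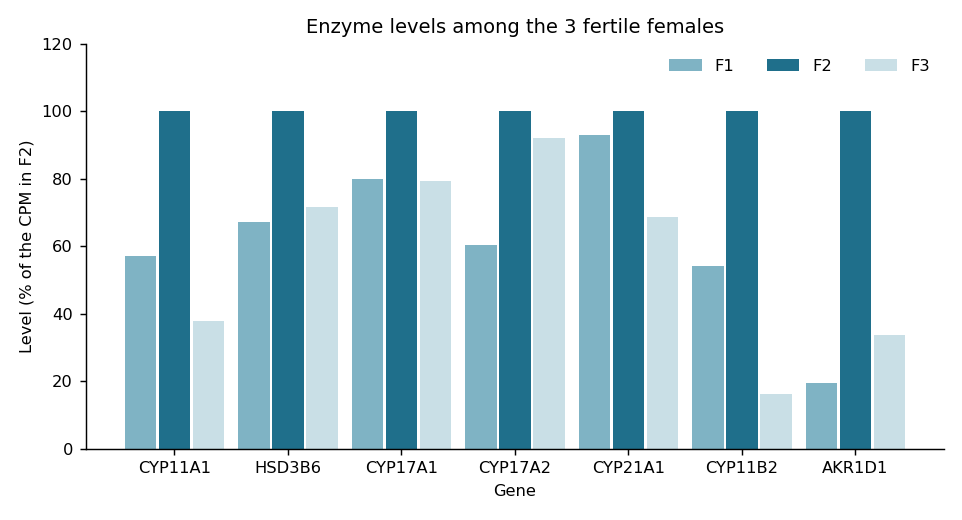
Level of each enzyme in F1, F2 and F3 as a percentage of the CPM in F2, with the unigenes of a gene summed. F2 is highest throughout, F3 has 16.2% of the F2 level for *CYP11B2* and 37.8% for *CYP11A1*, F1 has 19.6% for *AKR1D1*, and no fish is below 68.8% for *CYP21A1*.

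The order of F1 and F3 depended on the step. F1 was above F3 for *CYP11A1*, *CYP11B2* and *CYP21A1*, level with it for *CYP17A1*, and below F3 for *CYP17A2*, *HSD3B6* and *AKR1D1*. Of these, the intervals of the ratio of F1 to F3 excluded 1 for *CYP11A1*, at 1.51 times (1.15 to 2.0), and for *CYP11B2*. Per *CYP11A1* count there were 0.384, 0.406 and 0.174 *CYP11B2* counts in F1, F2 and F3, and the interval of F3 (0.0954 to 0.298) did not reach that of F2 (0.317 to 0.516) but overlapped that of F1 (0.269 to 0.540). *AKR1D1* had 0.168, 0.490 and 0.435 counts per *CYP11A1* count in F1, F2 and F3, so here F1 stood apart, with an interval of 0.10 to 0.268 against 0.292 to 0.637 in F3. With 3 fish no test of this order was made.

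*CYP11A1* was lower in sterile gonads by a larger factor than most other steps, and its balance with *HSD3B6* differed between the groups beyond counting error. Per *CYP11A1* count there were 15.3, 15.1 and 11.0 *HSD3B6* counts in S1, S4 and S5, against 2.01, 1.71 and 3.24 in F1, F2 and F3. The lowest bound of a sterile fish, 5.09 in S5, lay above the highest bound of a fertile fish, 4.14 in F3. *CYP17A2* had 2.33, 1.86 and 1.0 counts per *CYP11A1* count in the sterile fish, against 0.208, 0.197 and 0.478 in the fertile fish. *CYP17A1* had 1.5, 1.0 and 1.14, against 0.152, 0.109 and 0.228, and *CYP21A1* 1.0, 0.714 and 1.71, against 0.272, 0.167 and 0.304. For each of *CYP17A2*, *CYP17A1* and *CYP21A1*, intervals of sterile fish overlapped that of F3. An example is *CYP21A1*, with 0.179 to 2.61 in S4 against 0.192 to 0.469 in F3. For *CYP11B2* the sterile values of 0.167, 0.571 and 0.286 spanned those of the fertile fish. No difference was detectable, but S1 had 1 count against 6 of *CYP11A1*, with an interval of 0.00362 to 1.37. Intervals this wide cannot show whether the proportion was kept. For *AKR1D1* the sterile values were 0.333, 0.857 and 0.714, against 0.168, 0.490 and 0.435, with overlapping intervals. These ratios come from the contrast that chose the members and are given as a description.

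**Figure D4:**
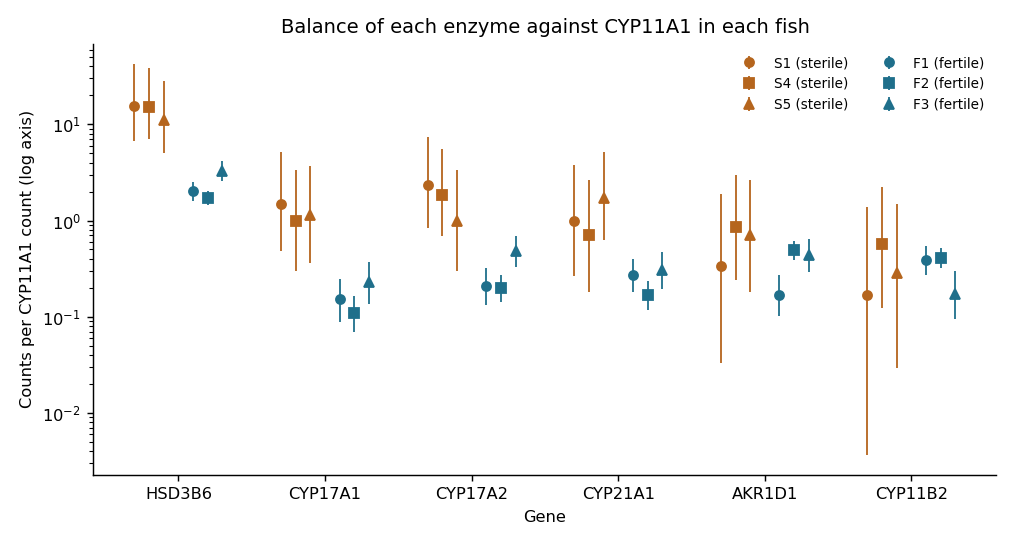
Counts of each enzyme per *CYP11A1* count (log axis) in each sterile (brown) and fertile (blue) fish, with exact 95% binomial intervals. For *HSD3B6* the sterile fish, at 11.0 to 15.3, lie above the fertile fish, at 1.71 to 3.24, whereas for every other enzyme some intervals of the groups overlap.

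Levels of different genes can be compared only per length, which the identifiers of 13 members give. On the scale of CPM per kilobase, summed over the unigenes of a gene, *CYP11A1* led in fertile gonads with 3.94 ± 1.87, followed by *CYP21A1* with 2.18 ± 0.469, *CYP11B2* with 1.84 ± 1.36, *CYP17A1* with 1.17 ± 0.134 and *CYP17A2* with 1.0 ± 0.250 (SD, n = 3). No neighbours in this order differed beyond their SDs. *CYP11A1* was first in each fertile fish, *CYP11B2* was second in F2 and last in F3, and *CYP17A1* and *CYP17A2* changed places in F3. In sterile gonads *CYP21A1* was first, with 0.467 ± 0.201 CPM per kilobase, and *CYP11B2* last, with 0.0728 ± 0.0389, while *CYP11A1* had 0.166 ± 0.0347 (SD, n = 3 each). With only the longest unigene of each gene, *CYP11B2* led in fertile gonads at 1.84 and *CYP11A1* followed at 1.55 CPM per kilobase. In sterile gonads *CYP17A1* then led at 0.254, ahead of *CYP21A1* at 0.224, and *CYP11A1* was last at 0.0601, below *CYP11B2* at 0.0728. The order in both groups therefore depends on how fragments of a gene are added. *HSD3B6* and *AKR1D1* have merged contigs of unstated length, and they have no place in the order.

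The study's 2 steroid pathway lists hold 5 further unigenes. Of these, 3 passed the low-count filter and edgeR's quasi-likelihood test called none, where it called 0.137% of all tested unigenes in either direction. At an unadjusted *p* under 0.05 in that test there were 3, while DESeq2 called 1, the exact test 2 and limma-voom 0. Shares in either direction over all unigenes are not given for these settings, so nothing is read from their counts. The lists were drawn on these same fish. *fshr* (Contig4746) had 3.48, 1.96 and 3.18 CPM in S1, S4 and S5, against 4.15, 6.17 and 8.86 CPM in F1, F2 and F3, and among the fertile fish it was F3 and not F2 that was highest. *pla2g4a*, a phospholipase that releases arachidonic acid, had 0.119, 0.117 and 0.162 CPM in the sterile fish, against 0.408, 0.440 and 0.433 CPM in the fertile fish. The unigene matched to mouse *Akr1b3*, an aldose reductase, had 0.751, 0.496 and 1.17 CPM in the sterile fish, against 0.297, 0.102 and 0.533 CPM in the fertile fish, and its groups overlapped. *cyp3a65*, a cytochrome of xenobiotic and steroid breakdown, was below the filter with 3, 8 and 15 counts in the sterile fish, against 3, 2 and 0 counts in the fertile fish. The remaining unigene, c10364_g2_i1_227_10855, also *LOC793249*, had 1, 1 and 1 counts in the sterile fish, against 4, 8 and 9 counts in the fertile fish.

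Regulators of the pathway did not share one pattern. *nr5a1b* (Contig5671), whose mammalian counterpart activates the steroid enzyme genes, had 7.08, 4.47 and 9.28 CPM in S1, S4 and S5, against 9.64, 21.7 and 12.8 CPM in F1, F2 and F3, so that S5 and F1 almost met. The prolactin receptor unigene *prlra* (c15533_g1_i1_3148_7414) had 0.198, 0.0584 and 0.227 CPM in the sterile fish, against 4.78, 11.1 and 0.999 CPM in the fertile fish. The *prlr* unigene c8874_g2_i1_1473_1538 had 0, 2 and 4 counts in the sterile fish, against 49, 115 and 17 counts in the fertile fish. For *prlr* unigene c8874_g1_i1_715_1537 it was 2, 0 and 1 counts, against 19, 40 and 6 counts. In each of the prolactin receptor unigenes, though not in *nr5a1b*, F2 was highest and F3 lowest, as in *CYP11A1*, *CYP11B2*, *CYP21A1* and, nominally, *CYP17A1*. That order held for 18.3% of all tested unigenes. Its share among unigenes lower in sterile gonads was not computed. In the 342 tested unigenes lower in every sterile fish and more than 2-fold lower in the mean, F2 was highest in 72.8%.

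Unigenes whose levels followed *CYP11A1* were ranked by the Pearson correlation of log2(CPM + 1) over the 6 libraries. Those named are the 5 highest among tested unigenes with a symbol, members left out. Over all tested unigenes they had ranks 5, 13, 19, 20 and 21. They were *LOC569363* (c7305_g2_i1_572_9836, *r* = 0.995), *LOC100003999* (Contig8861, 0.992), *LOC100330916* (c13548_g1_i1_1002_2603, 0.989), *papss2b* (Contig5646, 0.988) and *slc1a4* (c7534_g2_i1_249_4983, 0.988). The first of these shares an assembly component with an *mpx* unigene. It had 1, 2 and 2 counts in S1, S4 and S5, against 10, 14 and 10 counts in F1, F2 and F3. For *slc1a4* the counts were 1, 2 and 1, against 9, 17 and 10, and for *LOC100330916* 4, 2 and 1, against 28, 35 and 22. The correlations of these unigenes rest on few reads. *papss2b* makes the sulfate donor used to conjugate steroids among other substrates, and *slc1a4* carries neutral amino acids. *papss2b* had 1.82, 1.96 and 2.53 CPM in S1, S4 and S5, against 11.3, 19.8 and 11.5 CPM in F1, F2 and F3. On the same measure *HSD3B6* had an *r* of 0.977, *CYP21A1* 0.974, *CYP17A1* 0.973, *CYP11B2* 0.952, *AKR1D1* 0.912 and *CYP17A2* 0.909. Symbols come from the study's list alone and the 6 fish form 2 groups, so these values mostly restate the sterile-to-fertile difference.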

How the data were processed

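Gonad RNA of 3 sterile and 3 fertile DH females was sequenced as paired-end reads. The authors filtered the reads, assembled each library with Trinity, merged contigs with CAP3 and mapped reads to the unigenes with BWA (version 0.7.8-r455 per the submitters' processing notes). The deposited values are raw counts per unigene, made with Picard by the methods and HTSeq by the processing notes. The treatment of multi-mapped reads and of strand was not given in the sources used here. Fold changes and *p*-values in the authors' lists were not used.

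The tests ran under R 4.3.3 in edgeR 4.0.16 (filterByExpr, TMM, glmQLFit, glmQLFTest, Benjamini-Hochberg adjustment over 35787 unigenes), sterile over fertile. Standard errors are the log2 fold change over the square root of *F*. For genes, unigenes were summed before the fit. The test was tried on simulated data. Intervals used scipy 1.17.1. Per sample, 25024469 to 35719683 counts were available, and no libraries of a group agreed within sampling noise.

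Named were all members, the other unigenes of both pathway lists, unigenes sharing a component (running number within 10), *prlr*, *fshr* and *nr5a1b*. Also named were the 5 unigenes most like *CYP11A1* among tested unigenes with a symbol that were not members. Members and lists were chosen with earlier results of these data known. Alternatives were other filters, normalizations and tests (the exact test of edgeR, DESeq2 1.42.0, voom in limma 3.58.1), omission of each fish and the sums over same-symbol unigenes, with S4 and S5 both left out added after seeing the data. Whether 1 library is 1 fish or a pool is worded both ways in the sources. No sequences of the unigenes were used here.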

Additional observations from a re-analysis of the deposited data

How the results depend on the processing

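No paired analysis was possible because the columns of the groups share only the number 1. The members' log2 fold changes were negative in all 141 values obtained for the 10 tested members under alternatives, and 6 moved by more than that member's own SD of log2 CPM within groups. Leaving out 1 fish moved a few by more than 1.5 times: *CYP11B2* and *AKR1D1* were at -3.82 and -2.86 without F2, c15635_g1_i3_1096_7451 of *CYP11A1* at -3.74 without F2 and -5.22 without S5, c6200_g1_i1_1114_9587 of *CYP11A1* at -4.50 without S5 and c7251_g2_i1_649_1029 at -2.84 without S5. The 15 members stayed separate between the groups under every scaling tried. The count of called members was 3 of 10 tested, where 0.0810% of all tested unigenes were called lower in sterile gonads. It was 9 with edgeR's exact test (0.595% of all) and 10 at an unadjusted *p* under 0.05 (1.09%). With at least 10 counts in every library only *HSD3B6* was tested, and it was called. With limma-voom the count was 1, and with 1 fish left out between 0 and 4, being 0 without S4 and 1 without S1. Shares over all unigenes are not given for these last settings, so nothing is read from their counts. With S4 and S5 both left out, 1 sterile fish remained and the median log2 fold change of the tested members was -2.92. Single members shifted in both directions in that fit. The unigene c14604_g1_i2_911_7187 of *CYP17A1* was at -0.60 (-1.26 with all fish) and c13080_g1_i2_1280_11607 of *CYP17A2* at -1.47 (-2.17). Of *CYP11A1*, c15635_g1_i3_1096_7451 was at -7.44 (-4.38) and c6200_g1_i1_1114_9587 at -7.57 (-3.84), both with 0 counts in S1. The median log2 fold change of the tested members, -2.98 (0.01 over all tested unigenes), was -2.43 with no low-count filter, when all 15 were tested, -1.84 with at least 10 counts in every library, when only *HSD3B6* was, and -3.98 to -2.50 with 1 fish left out. With the longest unigene of each gene alone, 2 of the 5 genes kept their place in the order per kilobase in fertile fish. Beyond fewer fish or unigenes entering, the cause of these shifts was not tested. Counts under 10 in the sterile libraries limit the precision of 14 members.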
